A study of Mus musculus with 6 samples.

Results

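The 10 genes described here encode B cell surface proteins that signal to T cells or receive signals from them. They were taken by name from a deposited table of 27179 genes: *Cd80*, *Cd86*, *Cd83*, *Icosl*, *Cd274*, *Pdcd1lg2*, *Tnfrsf14*, *Btla*, *Cd200* and *Cd69*. All 10 passed the expression limit (average log2 CPM of 0 or more, where CPM is the count scaled to library size with TMM factors) and were among the 11005 genes tested.

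RNA-seq was performed on NP-binding IgG1+ germinal center (GC) B cells taken from the spleen of WT or *Il21r*-/- mice, both on a C57BL/6 background, on days 7, 10 and 14 after immunization with NP-KLH in alum. NP is a hapten, and KLH is the carrier protein that supplies T cell help. There were 6 libraries, 1 of each genotype on each day, so a day compared 1 library with 1 library and the 3 libraries of a genotype differed in day. Cells were sorted for NP binding, IgG1 and B220 and against CD38, Gr1, CD138, IgM and IgD, and light and dark zone cells were not separated.

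The *Il21r*-/- allele is a germline null allele of the IL-21 receptor gene and is not limited to B cells. According to the study's methods, nearly all of its experiments used irradiated Ly5.1 hosts that had received WT or *Il21r*-/- bone marrow, so in both groups the radioresistant host cells may have kept the receptor. The design text describes an independent mouse behind each library. The methods instead describe more mice of each genotype than libraries, from separate immunizations. A supplementary legend describes several mice of each genotype for the day 7 sort. These sources differ on the number of mice behind a library, and the study gives age only as a range of weeks for all of its mice. p-values therefore measure the scatter of these libraries around the fitted model, not a spread between mice. In the model with a linear effect of day, that scatter holds any other change with day. Which immunization each library came from is not given in the sources used here. The part of immunization in the differences between days was not tested.

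T cells need 2 kinds of signal from an antigen-presenting B cell. The antigen receptor reads peptide on MHC class II, and costimulatory receptors read ligands such as CD80, CD86 and ICOSL. In the GC these contacts take place mainly in the light zone, where follicular helper T cells select B cells, and inhibitory pairs such as the PD-1 ligands with PD-1 and HVEM with BTLA restrain the exchange. IL-21 is made by the helper T cells and acts on the B cells through the receptor that is missing here.

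The libraries held 21353438 to 27435124 counted reads. *Il21r*, the targeted gene (chromosome 7, 125603252 to 125634397), stood at 346, 263 and 247 CPM in WT and at 106, 128 and 113 CPM in *Il21r*-/- on days 7, 10 and 14, so the levels matched the labels while reads of the locus were still counted. All 12 GC B cell markers passed the expression limit, and their summed level was 13400 to 16100 CPM in WT and 14500 to 17800 CPM in *Il21r*-/-. Of 12 T cell markers 4 passed the limit, with a summed level of 189 to 236 CPM in WT and 198 to 283 CPM in *Il21r*-/- that was held mainly by *Cd2* and *Lck*. The other 10 summed to 4.07 to 9.68 CPM in WT and 7.39 to 14.3 CPM in *Il21r*-/-. Of the whole list, *Lat* was called higher in *Il21r*-/- over the 3 days (log2 difference 0.87, SE 0.19, adjusted p = 0.0321, edgeR quasi-likelihood test), and *Cd2* was called higher only in the fit blocked by day (0.43, adjusted p = 0.000191). Of the CD3, CD4 and CD8 genes, *Cd3e* had 0 to 2 counts in any library, *Cd3d* 6 to 15, *Cd3g* 0 to 7, *Cd4* 1 to 12, *Cd8a* 0 to 1 and *Cd8b1* 2 to 12. Of 15 myeloid and dendritic cell markers 5 passed, with 80.3 to 92.1 CPM in WT and 66.4 to 90.7 CPM in *Il21r*-/- that was held mainly by *Flt3*. The other 14 summed to 9.27 to 15.4 CPM in WT and 13.5 to 21.3 CPM in *Il21r*-/-. Of the whole list, *Cd68* was called higher in *Il21r*-/- (0.62, SE 0.15, adjusted p = 0.0449, edgeR quasi-likelihood test), and the fit blocked by day also called *Adgre1* higher (1.35, adjusted p = 0.00313, 4 to 43 counts) and *Flt3* lower (-0.30, adjusted p = 0.0107). The part of such cells in the differences of the 10 genes was not tested. Of 6 markers of stroma and follicular dendritic cells none passed, and *Cxcl13*, *Pdpn*, *Col1a1* and *Col3a1* were at 0 in all 6 libraries.

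Over the 3 days, 6 of the 10 genes were called higher in *Il21r*-/- and none lower (*Cd80*, *Cd83*, *Icosl*, *Cd274*, *Pdcd1lg2* and *Cd69*; edgeR quasi-likelihood test, genotype plus a linear effect of day, adjusted p under 0.05). Of all genes tested, 4.52% were called higher by the same test. The median log2 difference (*Il21r*-/- minus WT) was 0.73 over the 10 genes and 0.01 over all 11005. In 9 of the 10 genes, all but *Btla*, the lowest of the 3 *Il21r*-/- libraries lay above the highest of the 3 WT libraries, which was so for 10.0% of all genes. It follows that the level of these 9 genes in *Il21r*-/- exceeded that in WT on every single day, a weaker condition that 27.9% of all genes tested met.

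The calls of 5 of the 6 genes were lost when the WT library of day 14 was left out. Without it, the quasi-likelihood test called only *Cd80*, and 0.981% of all genes were called higher, against 4.52% with all 6 libraries. The differences of the other 5 genes were still 0.66 to 1.15 on the log2 scale. With day as a block, which uses the pairing of libraries by day, 8 of the 10 genes were called higher (13.6% of all genes), and *Cd86* and *Cd200* joined the 6.

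**Figure D1:**
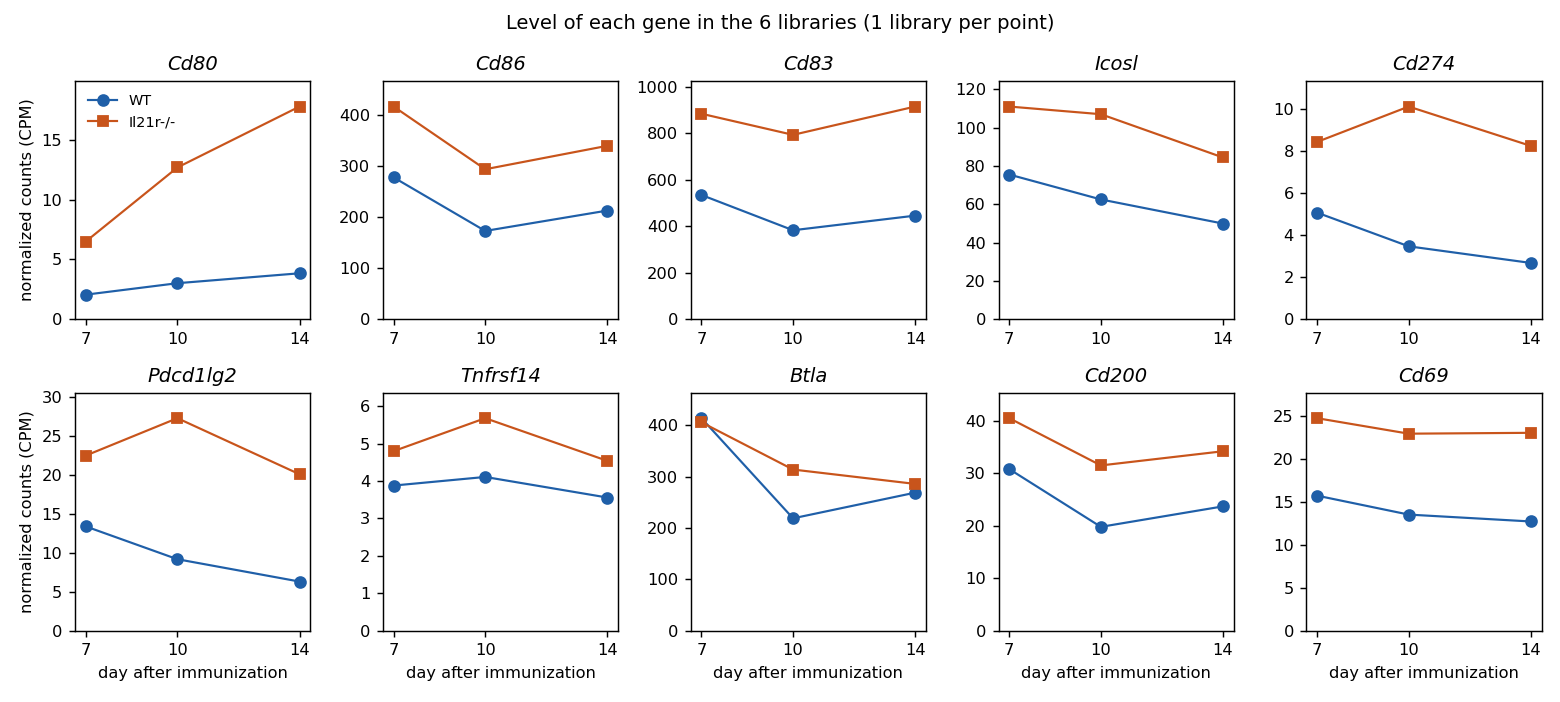
Normalized counts (CPM, linear axes from 0) of each of the 10 genes against day after immunization, with 1 library per point, circles for WT and squares for Il21r-/-. In all panels but that of Btla the squares lie above the circles on every day, and Cd80 in Il21r-/- climbs from 6.5 to 17.8 CPM.

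*Cd80* and *Cd86* encode the B7 ligands of CD28 and CTLA-4 on T cells. *Cd80* (chromosome 16, 38457430 to 38495958) was read 56, 74 and 82 times in WT and 149, 333 and 443 times in *Il21r*-/- on days 7, 10 and 14. As normalized counts these were 2.05, 3.01 and 3.84 CPM in WT and 6.5, 12.7 and 17.8 CPM in *Il21r*-/-. The lowest *Il21r*-/- library exceeded the highest WT library, and both genotypes rose from day to day. *Cd80* had the largest genotype difference of the 10 genes, 2.0 on the log2 scale (SE 0.19, 4.01-fold, adjusted p = 0.000976, edgeR quasi-likelihood test). It was also the only gene of the 10 that was called on day 7 (log2 difference 1.66, SE 0.38, adjusted p = 0.00271, edgeR likelihood ratio test).

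The promoter window of *Cd80* is shown because this gene carried both the largest genotype difference and a change with day. It is the RefSeq window of 250 bases before to 50 bases after an annotated start (GRCm38.p6, chr16:38458683-38458982, plus strand), and that start lies inside the annotated gene, downstream of its first base. Capitals mark the E-box CAGCTG, which reads the same on both strands and was found in 16.3% of the 32851 promoter windows of the RefSeq table.
Cd80: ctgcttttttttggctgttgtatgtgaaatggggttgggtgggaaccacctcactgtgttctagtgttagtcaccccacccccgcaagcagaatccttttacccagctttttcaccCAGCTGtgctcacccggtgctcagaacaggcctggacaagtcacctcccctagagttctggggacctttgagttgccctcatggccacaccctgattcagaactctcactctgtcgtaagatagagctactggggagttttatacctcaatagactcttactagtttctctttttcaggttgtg

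*Cd86* (chromosome 16, 36568956 to 36666158), a marker by which light zone cells are commonly gated, was far more abundant. Its level was 278, 173 and 213 CPM in WT and 417, 294 and 340 CPM in *Il21r*-/- on days 7, 10 and 14. The groups did not overlap, and in both genotypes day 10 was the lowest. The difference over 3 days was 0.67 (SE 0.17), with an adjusted p of 0.0548 (edgeR quasi-likelihood test), or of 5.12e-08 in the fit blocked by day. On single days the difference was 0.58, 0.77 and 0.67 and passed no threshold (adjusted p = 0.953, 0.221 and 0.324, edgeR likelihood ratio test). With dispersions taken from the fit with day as a block, these adjusted p-values were 0.0095, 5.41e-05 and 0.00057.

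The 2 CD28 ligands thus stood in different proportions across the libraries. Per kilobase of exon (RPKM, CPM per kilobase), the level of *Cd86* was 90.8 times that of *Cd80* in WT on day 7, 38.5 times on day 10 and 37.1 times on day 14. In *Il21r*-/- the ratios were 42.9, 15.5 and 12.8. On each day the ratio in *Il21r*-/- was below that in WT, and it was lower on days 10 and 14 than on day 7 in both genotypes. The ratios are given as a description, and their difference between genotypes was not tested.

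**Figure D2:**
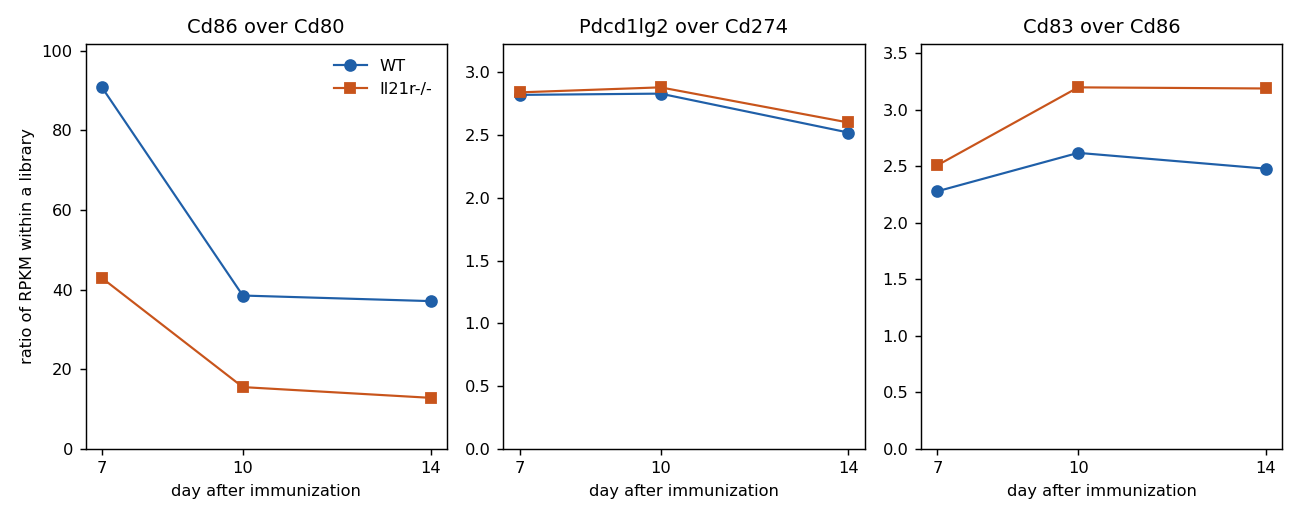
Ratio of RPKM values of a pair of genes within a library (linear axes from 0) against day after immunization, circles for WT and squares for Il21r-/-, 1 library per point. The ratio of Cd86 to Cd80 falls after day 7 and is lower in Il21r-/- (12.8 against 37.1 on day 14), that of Pdcd1lg2 to Cd274 stays between 2.52 and 2.88 in all 6 libraries, and that of Cd83 to Cd86 is 2.28 to 3.2.

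*Icosl* encodes the ligand of ICOS, a receptor that follicular helper T cells need. Its level (chromosome 10, 78069368 to 78079525) was 75.5, 62.5 and 49.9 CPM in WT and 111, 107 and 84.4 CPM in *Il21r*-/- on days 7, 10 and 14. No *Il21r*-/- library fell into the WT range, and the last day was the lowest in both genotypes. The difference over 3 days was 0.70 (SE 0.10, 1.62-fold, adjusted p = 0.00488, edgeR quasi-likelihood test). This was the smallest standard error of the 10 genes in that test. The call was kept in 11 of 12 alternative settings and was lost without the WT library of day 14 (adjusted p = 0.0829). On day 7 the difference of 0.56 (SE 0.20) was not called (adjusted p = 0.292, edgeR likelihood ratio test), but it was with dispersions from the blocked fit (adjusted p = 0.026).

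The *Icosl* promoter is shown as that of a called gene with a kappaB match. The window is chr10:78069118-78069417 (GRCm38.p6, plus strand, RefSeq). Capitals mark a match to the kappaB consensus, searched on both strands, which 8.46% of all promoter windows and 2 of the 7 windows of these genes held.
Icosl: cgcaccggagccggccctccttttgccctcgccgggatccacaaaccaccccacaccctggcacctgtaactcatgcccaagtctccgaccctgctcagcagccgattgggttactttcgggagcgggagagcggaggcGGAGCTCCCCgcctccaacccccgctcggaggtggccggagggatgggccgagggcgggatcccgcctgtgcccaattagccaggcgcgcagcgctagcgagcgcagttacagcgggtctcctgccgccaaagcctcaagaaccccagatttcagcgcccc

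*Cd83*, whose product stabilizes MHC class II and CD86 at the cell surface, was the most abundant of the 10 genes per length. Its level (chromosome 13, 43785112 to 43803133) was 535, 383 and 446 CPM in WT and 885, 794 and 916 CPM in *Il21r*-/- on days 7, 10 and 14. The groups were well apart. The difference over 3 days was 0.93 (SE 0.14, 1.91-fold, adjusted p = 0.00669, edgeR quasi-likelihood test). On day 7 it was 0.73 (SE 0.26) and was not called (adjusted p = 0.241, edgeR likelihood ratio test), whereas on days 10 and 14 it was 1.05 and 1.04 and was called (adjusted p = 0.00331 and 0.0042). With day as a block the day 7 difference was called too (adjusted p = 0.000733). Per length, *Cd83* was 2.28 to 2.62 times as abundant as *Cd86* in WT and 2.51 to 3.2 times in *Il21r*-/-.

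*Cd274* and *Pdcd1lg2* encode PD-L1 and PD-L2, the ligands of the inhibitory receptor PD-1, and are neighbours on chromosome 19 (29362107 to 29388095 and 29410919 to 29472927). Both were called higher in *Il21r*-/- by similar amounts. *Cd274* was read 138, 85 and 57 times in WT and 193, 265 and 205 times in *Il21r*-/- on days 7, 10 and 14, or 5.06, 3.46 and 2.67 CPM against 8.42, 10.1 and 8.23 CPM. *Pdcd1lg2* stood at 13.4, 9.19 and 6.32 CPM in WT and at 22.5, 27.3 and 20.1 CPM in *Il21r*-/-. For both genes the WT level was lower on each later day, the *Il21r*-/- level was highest on day 10, and the groups did not overlap.

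Over 3 days the log2 difference was 1.29 for *Cd274* (SE 0.20, 2.44-fold, adjusted p = 0.00924) and 1.33 for *Pdcd1lg2* (SE 0.19, 2.51-fold, adjusted p = 0.00547, edgeR quasi-likelihood test). On day 7 it was 0.74 (SE 0.38) and 0.75 (SE 0.35), and neither was called (adjusted p = 0.93 and 0.773, edgeR likelihood ratio test). On day 14 it was 1.62 (SE 0.41) and 1.67 (SE 0.36), and both were called (adjusted p = 0.00459 and 0.000566). Within a library the per-length ratio of *Pdcd1lg2* to *Cd274* was 2.52 to 2.88 in all 6 libraries, while each gene alone varied from library to library by more than that.

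The promoters of the 2 genes are shown because their transcripts moved together. Both windows are on the plus strand (GRCm38.p6, RefSeq), chr19:29367188-29367487 for *Cd274*, at a start inside the annotated gene, and chr19:29410669-29410968 for *Pdcd1lg2*. Capitals mark the kappaB match and the E-box CAGCTG, both in the *Pdcd1lg2* window and none in that of *Cd274*.
Cd274: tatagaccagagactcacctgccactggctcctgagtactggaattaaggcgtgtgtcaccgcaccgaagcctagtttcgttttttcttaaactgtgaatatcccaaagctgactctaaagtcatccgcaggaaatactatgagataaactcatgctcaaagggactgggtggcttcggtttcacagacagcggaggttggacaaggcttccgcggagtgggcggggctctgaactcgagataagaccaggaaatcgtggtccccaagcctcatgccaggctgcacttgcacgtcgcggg
Pdcd1lg2: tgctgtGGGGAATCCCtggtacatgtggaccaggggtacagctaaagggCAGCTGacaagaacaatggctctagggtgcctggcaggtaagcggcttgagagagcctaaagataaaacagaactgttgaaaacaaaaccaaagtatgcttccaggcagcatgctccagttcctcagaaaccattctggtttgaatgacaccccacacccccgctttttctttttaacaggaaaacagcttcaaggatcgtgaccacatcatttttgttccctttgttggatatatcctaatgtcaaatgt
RefSeq windows were found for 7 of the 10 genes, not for *Cd86*, *Cd83* or *Cd69*. The GAS motif TTCNNNGAA, the palindromic element that STAT proteins bind, was in none of the 7 windows and in 8.3% of all 32851. The E-box was in 3 of the 7 (*Cd80*, *Pdcd1lg2* and *Btla*). A match only says that these letters are in the window, and its absence says nothing of the factor.

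*Tnfrsf14* encodes HVEM and *Btla* its inhibitory partner, and both are found on B cells and T cells. Neither was called. *Tnfrsf14* (chromosome 4, 154918487 to 154928620) had 106, 101 and 76 counts in WT and 110, 149 and 113 counts in *Il21r*-/-, or 3.88, 4.11 and 3.56 CPM against 4.8, 5.68 and 4.54 CPM on days 7, 10 and 14. The normalized levels did not overlap, but the difference over 3 days of 0.38 (SE 0.18) had an adjusted p of 0.259 (edgeR quasi-likelihood test), or of 0.138 in the fit blocked by day.

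*Btla* (chromosome 16, 45223705 to 45252895) was at 414, 219 and 269 CPM in WT and at 406, 314 and 286 CPM in *Il21r*-/- on days 7, 10 and 14. It was the only one of the 10 genes whose groups overlapped and whose difference on a day was below 0. The WT and *Il21r*-/- levels were close on day 7 (log2 difference -0.03, SE 0.31) and on day 14 (0.09, SE 0.31) and farthest apart on day 10 (0.52, SE 0.31). Over 3 days the difference was 0.17 (SE 0.17, adjusted p = 0.633, edgeR quasi-likelihood test). Without the WT library of day 10 it was -0.02. The day 10 difference was called only with dispersions from the blocked fit (adjusted p = 0.0476, edgeR likelihood ratio test).

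*Cd200* encodes a ligand of the inhibitory receptor CD200R. It lies on chromosome 16 (45382111 to 45409060) and stood at 30.8, 19.8 and 23.7 CPM in WT and at 40.5, 31.5 and 34.2 CPM in *Il21r*-/- on days 7, 10 and 14. The lowest *Il21r*-/- value was just above the highest WT value. The difference over 3 days was 0.52 (SE 0.16), with an adjusted p of 0.0994 (edgeR quasi-likelihood test), or of 0.000262 in the fit blocked by day. On day 10 alone it was 0.67 (SE 0.30), with an adjusted p of 0.337 in the edgeR likelihood ratio test and of 0.00995 with dispersions from the blocked fit.

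*Cd69* encodes an early activation antigen that holds lymphocytes in tissue by opposing the receptor S1PR1. Its level (chromosome 6, 129267324 to 129275375) was 15.7, 13.5 and 12.7 CPM in WT and 24.7, 22.9 and 23 CPM in *Il21r*-/- on days 7, 10 and 14. Both groups were tight and did not overlap. The difference over 3 days was 0.76 (SE 0.12, 1.69-fold, adjusted p = 0.00865, edgeR quasi-likelihood test). On single days only day 14 was called (log2 difference 0.86, SE 0.25, adjusted p = 0.0259, edgeR likelihood ratio test). The day 10 difference of 0.76 had an adjusted p of 0.0684, or of 0.00765 with dispersions from the blocked fit. The call over 3 days was lost without the WT library of day 14 (adjusted p = 0.108) and without the *Il21r*-/- library of day 14 (adjusted p = 0.0535).

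**Figure D3:**
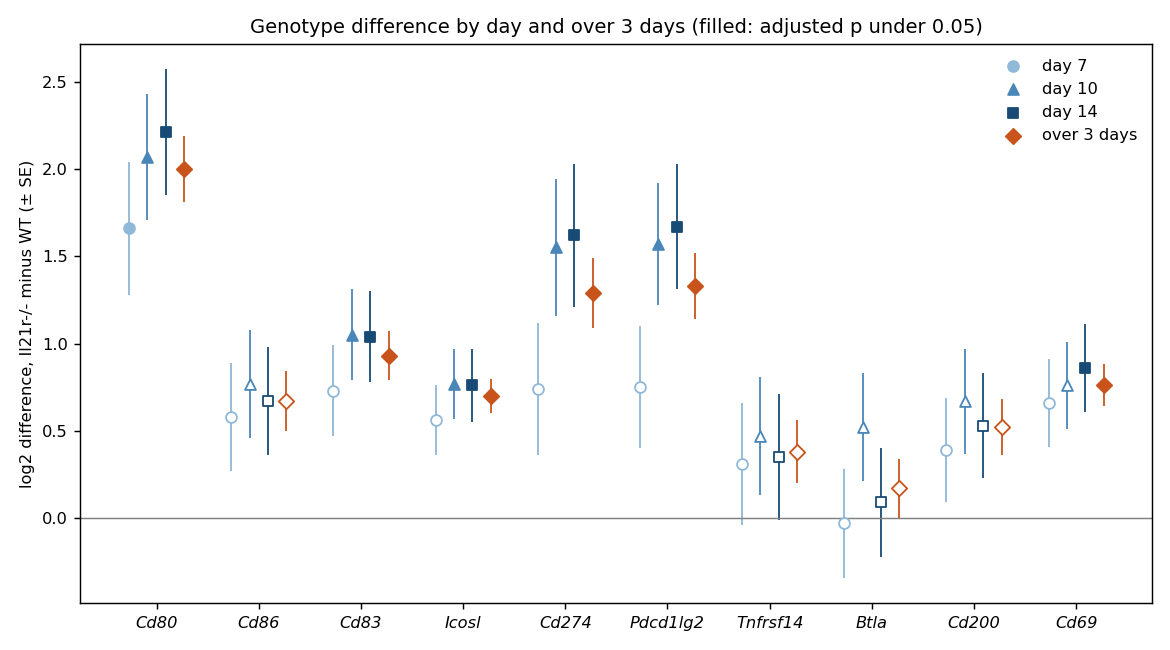
Log2 difference (Il21r-/- minus WT) of each of the 10 genes on days 7, 10 and 14 and over 3 days, with bars of 1 standard error from the fitted model and filled symbols where the adjusted p is under 0.05. Cd80 is filled on all days, with 1.66, 2.07 and 2.21, and Cd274 and Pdcd1lg2 go from 0.74 and 0.75 on day 7 to 1.62 and 1.67 on day 14.

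By day, the count of genes called higher in *Il21r*-/- was 1 of 10 on day 7, 5 on day 10 and 6 on day 14 (edgeR likelihood ratio test). The shares of all genes called higher were 0.872%, 2.60% and 2.55%. The 5 genes of day 10 were *Cd80*, *Cd83*, *Icosl*, *Cd274* and *Pdcd1lg2*, and on day 14 *Cd69* was added. The median log2 difference of the 10 genes was 0.62, 0.77 and 0.81 on the 3 days, against 0, 0.02 and 0.01 over all genes. With dispersions from the fit with day as a block, 4, 9 and 7 of the 10 were called higher (2.0%, 5.64% and 6.08% of all genes). These tests use the same 6 libraries as the test over 3 days and are not independent of it.

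The *Il21r*-/- to WT ratio of all 10 genes was smallest on day 7, and 36.1% of all genes had their lowest log2 difference on that day. The test of the difference itself, the genotype by day term, called none of the 10 genes. It called 0.00% of all genes (0 of 11005, edgeR quasi-likelihood test, with 118 at an unadjusted p under 0.05 and 0 called by the DESeq2 Wald test). Of the 10 genes none had an unadjusted p under 0.05. For *Pdcd1lg2* the change from day 7 to day 14 was -1.08 (SE 0.29) in WT and -0.20 (SE 0.27) in *Il21r*-/-, a difference of 0.88 (SE 0.40, unadjusted p = 0.0637, edgeR quasi-likelihood test). For *Cd274* the values were -0.92 (SE 0.34) and -0.06 (SE 0.31), a difference of 0.86 (SE 0.46). A difference in time course between the genotypes was therefore not detectable with these libraries.

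Of the 10 genes only *Cd80* changed with day, by 1.17 on the log2 scale from day 7 to day 14 (SE 0.22, 2.26-fold, adjusted p = 0.0272, edgeR quasi-likelihood test on both genotypes together). Of all genes, 4.43% were called for a change with day in either direction. The other 9 genes had fitted changes from -0.62 (*Pdcd1lg2*) to -0.08 (*Cd83*), and the median of the 10 was -0.29 against 0 over all genes. *Icosl* came nearest to the threshold, with -0.50 (SE 0.12, adjusted p = 0.0507). The call of *Cd80* was lost without any 1 of the 4 libraries of days 7 and 14 (adjusted p = 0.1 to 0.176, log2 change 0.88 to 1.38). When day was a factor, so that any difference among the 3 days counted, 6 of the 10 genes were called (36.1% of all genes), namely *Cd80*, *Cd86*, *Cd83*, *Icosl*, *Btla* and *Cd200*. All of these but *Cd80* and *Icosl* had their lowest WT level on day 10.

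Compared per length, the 10 genes covered more than 2 orders of magnitude in WT, from 0.733 RPKM (*Cd274*, day 14) to 249 RPKM (*Cd83*, day 7). *Cd83* had rank 1 and *Icosl* rank 4 in all 6 libraries. *Cd86* and *Btla* shared ranks 2 and 3, with *Btla* higher in WT on day 7 and *Cd86* higher in all other libraries. In WT they were nearly equal on day 10 (68 and 67.8 RPKM for *Cd86* and *Btla*) and day 14 (83.8 and 83 RPKM). Their mean levels in WT were 87.1 ± 20.9 and 92.9 ± 31.2 RPKM (SD, n = 3 days). In *Il21r*-/- their means were 138 ± 24.5 and 104 ± 19.3 RPKM. *Cd200* and *Cd69* shared ranks 5 and 6, with 10.6 ± 2.39 and 8.62 ± 0.952 RPKM in WT and 15.1 ± 1.96 and 14.5 ± 0.625 RPKM in *Il21r*-/-. *Cd69* was the higher of the 2 only in *Il21r*-/- on day 10. The order of genes within a library was not tested.

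The 4 genes of lowest level changed places. *Cd80* had rank 10 in WT on day 7 (1.21 RPKM) and rank 7 in *Il21r*-/- on day 14 (10.5 RPKM). *Tnfrsf14* had rank 7 in all 3 WT libraries (4.31 ± 0.308 RPKM) and ranks 8 and 9 in *Il21r*-/- (5.6 ± 0.668 RPKM). *Pdcd1lg2* had ranks 7 to 9, and *Cd274* was last in 5 of the 6 libraries, with at most 2.77 RPKM. The SD here is over 3 days and holds any change with day.

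**Figure D4:**
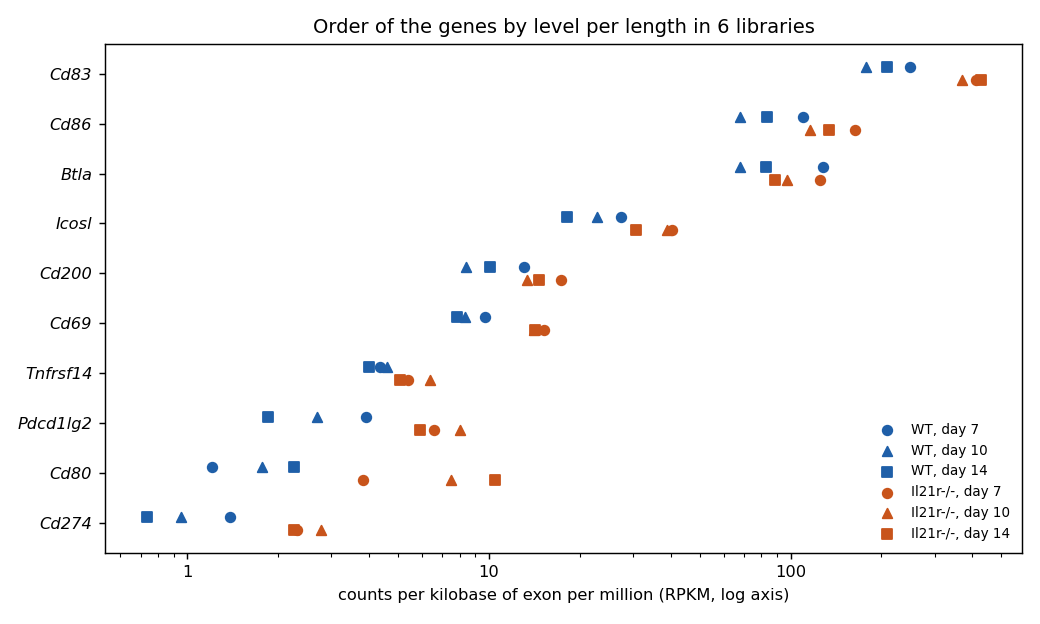
Level per length (RPKM, log axis) of the 10 genes in 6 libraries, blue for WT and orange for Il21r-/-, with circles, triangles and squares for days 7, 10 and 14. Cd83 lies at 178 to 427 and Cd274 at 0.733 to 2.77, and the Il21r-/- symbols of Cd80 reach past those of Tnfrsf14 on days 10 and 14.

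Transcripts of 9 listed T cell genes that act in contact with B cells were nearly absent from the libraries. Not all of the 9 pair with the 10 proteins, and *Tnfrsf14* and *Btla*, also found on T cells, were not in this list. None of the 9 passed the expression limit, and their counts were 0 to 20 in any library. *Cd28* had 3 to 15 counts, *Ctla4* 5 to 20, *Icos* 0 to 3, *Pdcd1*, which encodes PD-1, 2 to 18, and *Cd200r1* 0 to 3. *Cd160*, another ligand of HVEM, had 1 to 5 counts, *Klrb1* 2 to 13 and *Cd40lg* 8 to 20. *Il21* had 0 counts in all 6 libraries.

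A list of 30 other genes of B and T cell contact was set beside the 10. Of these, 24 were tested, and 6 were called higher and 1 lower in *Il21r*-/- over 3 days (edgeR quasi-likelihood test, adjusted p under 0.05). The median log2 difference was 0.44, and 20 of the 24 were above 0. The 6 genes not tested were *Vtcn1*, *Btn1a1*, *Tnfsf4*, *Tnfsf8*, *Nectin2* and *Nectin3*, with at most 24 counts in a library. With day as a block, 12 were called higher and 1 lower. The counts over all 11005 genes tested were 497 higher and 154 lower, and 1492 higher and 1027 lower with the block.

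Among those called, *Cd72*, an inhibitory coreceptor of B cells, was at 54.4, 26.3 and 12.3 CPM in WT and at 132, 96.2 and 91.3 CPM in *Il21r*-/- on days 7, 10 and 14 (log2 difference 1.98, SE 0.25, adjusted p = 0.00417, edgeR quasi-likelihood test). In the fit blocked by day this call was lost (adjusted p = 0.129). *Cd5*, which dampens antigen receptor signaling, was low, with 33, 12 and 7 counts in WT and 79, 68 and 59 in *Il21r*-/- (2.10, SE 0.32, adjusted p = 0.00702). *Lgals9*, which encodes the galectin that binds TIM-3, was at 41.6, 14.2 and 5.34 CPM in WT and at 71.6, 37 and 19.4 CPM in *Il21r*-/-. It was both higher in *Il21r*-/- (1.29, SE 0.20, adjusted p = 0.00783) and lower with day (-2.38, SE 0.24, adjusted p = 0.00487).

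*Cd70*, the ligand of CD27, went the other way with day. It had 1, 8 and 20 counts in WT and 3, 22 and 85 counts in *Il21r*-/- on days 7, 10 and 14. The fitted values were 1.69 for genotype (SE 0.39, adjusted p = 0.0357, edgeR quasi-likelihood test) and 3.97 for day (SE 0.52, adjusted p = 0.00611). They rest on 1 and 3 counts on day 7. *Havcr1*, which encodes TIM-1, was at 131, 156 and 246 CPM in WT and at 223, 225 and 353 CPM in *Il21r*-/- (genotype 0.61, SE 0.11, adjusted p = 0.018 and day 0.80, SE 0.14, adjusted p = 0.0183, edgeR quasi-likelihood test). *Cd70* and *Havcr1* were thus called in both tests with the same signs as *Cd80*. The related *Timd2* was higher in *Il21r*-/- (0.72, SE 0.12, adjusted p = 0.0112), and reads shared between these related genes could not be told apart here.

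*Btnl2*, a butyrophilin-like gene whose product inhibits T cells, was the only one of the 24 called lower. It was at 24.1, 29.5 and 33.3 CPM in WT and at 16.2, 14.4 and 16.3 CPM in *Il21r*-/- on days 7, 10 and 14, with a log2 difference of -0.88 (SE 0.13, adjusted p = 0.00702, edgeR quasi-likelihood test). With day, 4 of the 24 rose and 4 fell, against 118 and 370 of all 11005 genes tested. Beside those named, *Tnfsf9* (4-1BB ligand, 1.36, adjusted p = 0.0337) and *Tnfsf14* (LIGHT, a ligand of HVEM, 1.66, adjusted p = 0.0464) rose with day, and neither was called for genotype (0.01 and -0.07). *Ceacam1* (-1.24, adjusted p = 0.023), *Tnf* (-0.80, adjusted p = 0.0384) and *Vsir* (VISTA, -1.23, adjusted p = 0.0442) fell with day. For genotype, *Vsir* was called higher in *Il21r*-/- only in the fit blocked by day (0.77, adjusted p = 0.0185, edgeR quasi-likelihood test).

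**Figure D5:**
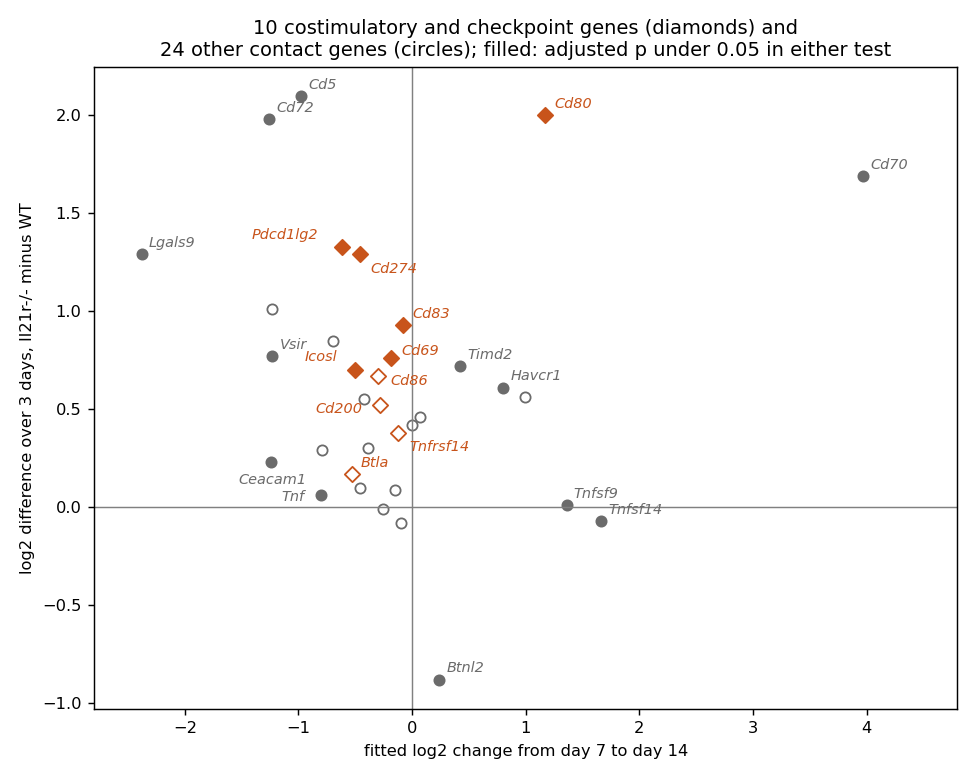
Log2 difference over 3 days (Il21r-/- minus WT) against the fitted log2 change from day 7 to day 14 for the 10 genes (diamonds) and the 24 other contact genes tested (circles), filled where the adjusted p of either test is under 0.05. Cd80 (2.0 and 1.17), Cd70 and Havcr1 lie at the upper right, Pdcd1lg2 and Cd274 at the upper left, and Btnl2 alone of the named genes lies far below 0.

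Other gene lists differed between the genotypes over the 3 days, as the 10 genes did. Of 24 light zone genes other than the 10, 6 were called higher in *Il21r*-/- and none lower, with a median of 0.29. Of 18 dark zone genes 1 was called higher and none lower, with a median of -0.31. On days 7, 10 and 14 the median of the light zone list was 0, 0.43 and 0.56, and that of the dark zone list -0.13, -0.35 and -0.32. The median of the 10 genes was 0.62, 0.77 and 0.81, so on day 7 the light zone list did not differ along with them. With day as a block the calls were 11 higher and 1 lower for the light zone list and 2 higher and 10 lower for the dark zone list. Of all 11005 genes tested, 497 were called higher and 154 lower, and 1492 higher and 1027 lower with the block. Because the sort pooled both zones, more light zone cells and more RNA of a gene per cell cannot be told apart in these bulk libraries. Among the markers of B cells outside the GC that are reported here, *Ccr7* (log2 difference 1.81, SE 0.23, adjusted p = 0.00322) was higher and *Ighm* (-0.48, SE 0.11, adjusted p = 0.0457) lower in *Il21r*-/- (edgeR quasi-likelihood test). The summed level of the whole list of 6 such markers was 395 to 805 CPM in WT and 401 to 584 CPM in *Il21r*-/-. The part of zone composition and of B cells from outside the GC in the differences of the 10 genes was not tested.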

How the data were processed

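RNA from 6 sorted GC B cell samples was sequenced by the authors as single-end reads, aligned to mm10 with Rsubread and counted on RefSeq genes with featureCounts. Per the labels, CASAVA 1.8.2 made the base calls. The deposited values are whole-number counts per gene, neither normalized nor filtered, and technical replicates had been pooled. The settings for strand and for reads that map to several genes are not given in the sources used here. The table of all libraries and the 6 single-library files were identical. Symbols and positions came from RefSeq tables of GRCm38.p6 for 25275 gene identifiers and from GENCODE for 18. The other 1886 identifiers held 1.57 to 2.24% of a library's counts and stayed in the totals.

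As in the study's methods, the tests excluded genes whose average log2 CPM was under 0, immunoglobulin variable segments, *Xist* and genes on the Y chromosome. Library sizes were scaled with TMM in edgeR 4.0.16 (R 4.3.3, limma 3.58.1). Dispersions were estimated on genotype plus linear day (3 residual degrees of freedom, common biological coefficient of variation 13.1%). For the genotype by day test they were estimated on the model with that term (2 residual degrees of freedom). Genotype over 3 days, day, and genotype by day were tested by quasi-likelihood, and genotype on single days by likelihood ratio tests. Because day-wise dispersions came from the additive model, differences present on all days were favoured over those of a single day. p-values were adjusted by Benjamini and Hochberg's method across the 11005 genes tested, and 0.05 was the threshold. Standard errors were computed from the Fisher information of each fit. The calculation was tested on simulated counts.

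Libraries of 1 day deviated together from their genotype means (r = 0.64, 0.413 and 0.645 across 11005 genes on days 7, 10 and 14, as a check and not as a test). The day therefore pairs the libraries, and blocked values are given where they change a call. Whether libraries of 1 day also shared an immunization is not given in the sources used here. Alternatives were DESeq2 size factors, 2 other count filters, the Wald test of DESeq2 1.42.0, day as a factor, leaving out each library, CPM without TMM, and, chosen after seeing the data, edgeR's newer quasi-likelihood method and the block for the gene lists.

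The 10 genes, the lists and the tests were chosen with earlier results of these data known. All 10 genes and *Il21r* are named, and of the other contact genes those called for genotype over 3 days or for day. *Ccr7*, *Ighm* and the T cell and myeloid markers were named after their values were seen, and 1 other marker of B cells outside the GC is not reported here. Of the marker lists not given in the report, 3 of 6 erythroid genes passed the expression limit (9.92 to 19 CPM in WT, 4.8 to 33.6 CPM in *Il21r*-/-, *Hbb-bt* not analysed here) and 3 of 5 plasma cell genes (2500 to 2720 and 2740 to 3580 CPM, mostly *Jchain*). Intervals of counting error were not computed, and the error of each difference comes from the fit.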

Additional observations from a re-analysis of the deposited data

How the results depend on the processing

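Of 620 values of the 10 genes under other settings, 565 kept direction and call, 27 gained a call, 15 lost one and 13 changed sign. No value that was called changed sign. DESeq2's size factors changed no count of called genes among the 10 and shifted the median of all genes by at most 0.03.

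With day as the replicate block, 2519 genes instead of 651 were called over 3 days, and 303, 822 and 1055 on days 7, 10 and 14. Of the 10 genes 8 were called over 3 days and 4, 9 and 7 on the 3 days, and the block changed no other call of the 10. With all genes that had any count, 991 genes were called over 3 days and 869 for change with day. The DESeq2 Wald test called 870 for change with day, a minimum of 10 counts 484, and day as a factor 3969. Of the 10 genes, 2 were called for change with day (*Cd80* and *Icosl*) with a minimum of 10 counts, with any count and by DESeq2, and 6 with day as a factor. Over 3 days DESeq2 and the setting with any count called 8 of the 10. Of all genes they called 633 of 11005 and 708 of 16908 higher, against 497 of 11005 in the main test. On day 14 both lost *Cd69* (adjusted p = 0.0625 and 0.054).

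When 1 library was left out, 132 to 2165 genes were called over 3 days and 1 to 8 of the 10, the lowest without the WT library of day 14 and the highest without the *Il21r*-/- library of day 10. On day 7 the ranges were 104 to 220 genes and 1 to 3 of the 10, and on day 14 they were 341 to 704 genes and 4 to 6 of the 10. Without the WT library of day 10, *Icosl* (adjusted p = 0.0523) and *Cd69* (0.0871) were not called on day 14, and without the WT library of day 14, *Icosl* (0.0539) was not called on day 10. For change with day the ranges were 0 to 2177 genes and 0 to 2 of the 10, with 0 genes without the WT library of day 7. For the difference in day trend they were 0 to 12 genes and 0 of the 10. The genotype difference of *Btla* was -0.02 to 0.38, and the change of *Cd83* with day -0.26 to 0.15. The difference in day trend was -0.91 to 1.34 for *Cd86*, -0.38 to 1.19 for *Cd83*, -0.4 to 0.62 for *Tnfrsf14*, -1.05 to 1.65 for *Btla*, -0.74 to 1.28 for *Cd200* and -0.03 to 0.4 for *Cd69*, so its sign depended on single libraries. The causes were not tested. CPM without TMM moved no mean level by more than the spread between libraries.

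With 1 library a day and 3 or fewer residual degrees of freedom, small differences were not detectable. Depth was the lower limit for *Cd80*, *Cd274* and *Tnfrsf14*, with 56, 57 and 76 counts in their lowest library.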
